A study of Mus musculus with 45 samples.

Results

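Transcription regulators that mark or specify neurons of the deep cortical layers, namely Tbr1, Fezf2, Bcl11b, Sox5, Tle4 and Foxp2, were followed in tables of metabolic RNA labelling (SLAM-seq). They were taken by name, and all 6 were found among the 53491 genes listed. All are protein-coding. On GRCm38, Tbr1 (ENSMUSG00000035033) lies at chr2:61802930-61814114 on the plus strand, Fezf2 (ENSMUSG00000021743) at chr14:12342094-12348189 on the minus strand and Bcl11b (ENSMUSG00000048251) at chr12:107910403-108003602 on the minus strand. Sox5 (ENSMUSG00000041540) lies at chr6:143828425-144781977 on the minus strand, Tle4 (ENSMUSG00000024642) at chr19:14448150-14598051 on the minus strand and Foxp2 (ENSMUSG00000029563) at chr6:14901349-15441977 on the plus strand.

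The cells were wild-type primary cells dissociated from mouse cortex of 3 embryonic ages (E11.5, followed by E14.5 and by E16.5) and kept in medium permissive for proliferation; the labels name no strain. Every culture received 100 uM 4-thiouridine (4sU), a uridine analogue that living cells build into new RNA, for 20 h, and then 5 mM uridine as a chase of 0, 2, 4, 8 or 12 h. Each stage had 3 pools of cortices, A, B and C, made from 7 embryos at the first stage and from 2 embryos at the others, and the cells of a pool were split into 5 wells, so that 45 libraries fall into 15 groups of 3 pools. No group was left without 4sU, and 0 h therefore means cells that had already spent the labelling period in culture. Libraries held 15.94 to 43.89 M reads over genes. The measures used are the level of a gene in cpm (its reads scaled to the size of the library), the conversion rate (the share of its sequenced T positions read as C, which marks labelled RNA) and the half-life fitted to the fall of that rate.

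The deep layers of the cortex hold the neurons whose axons leave it. Layer V contains the subcerebral projection neurons that reach brainstem and spinal cord, and layer VI the corticothalamic neurons. Fezf2 is the selector of the subcerebral fate and Bcl11b (CTIP2) acts downstream of it in axon outgrowth, whereas Tbr1 is the determinant of the corticothalamic fate and represses Fezf2. Sox5 times the production of deep-layer subtypes, Tle4 is a Groucho-type corepressor found in corticothalamic neurons, and Foxp2 is a forkhead repressor of layer VI that is also abundant in striatal neurons.

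Because the 3′ untranslated region (UTR) carries many of the elements that set RNA turnover, matches to known motifs were read from the longest coding isoform of each gene. The UTRs measured 1676 bases in Tbr1, 402 in Fezf2, 4997 in Bcl11b, 4839 in Sox5, 1584 in Tle4 and 3956 in Foxp2. The Pumilio motif (TGTANATA, sense strand only) is shown because it is a known decay element carried by 4 of the 6 genes. Its letters are in capitals, with 8 flanking bases on either side.
Tbr1, chr2:61812982-61813005, plus strand: gaaatgatTGTATATAgtgttaat
Bcl11b, chr12:107912377-107912400, minus strand: attttagtTGTATATAgtctgtca
Sox5, chr6:143829998-143830021, minus strand: aaagctgcTGTAAATAgcgactta
Sox5, chr6:143828709-143828732, minus strand: agaaattgTGTAAATAtaacatag
Tle4, chr19:14448437-14448460, minus strand: aagaactgTGTAGATAaactttat
Tle4, chr19:14448233-14448256, minus strand: ctgtgcatTGTACATAgttctaac
Tbr1 and Bcl11b share the same 8 letters, TGTATATA. Of UTRs within 20% of the same length, 29.8% held the motif for Tbr1, 60.4% for Bcl11b, 58.9% for Sox5 and 29.4% for Tle4. Fezf2 and Foxp2 had no such match, against 8.21% and 52.1% of UTRs of like length that had one. The AU-rich nonamer TTATTTATT was in none of the 6 UTRs, and the pentamer ATTTA occurred 3 times in Tbr1, 3 in Fezf2, 12 in Bcl11b, 12 in Sox5, 3 in Tle4 and 7 in Foxp2.

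Matches to the seeds of neural microRNAs are shown because most of them fell in Foxp2. The mature mouse microRNAs (RefSeq, GRCm38.p6) follow with the seed, bases 2 to 8, in capitals.
let-7a-5p: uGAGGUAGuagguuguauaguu
miR-9-5p: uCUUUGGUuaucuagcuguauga
miR-132-3p: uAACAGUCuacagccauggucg
miR-128-3p: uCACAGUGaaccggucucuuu
The matching stretches carry the complement of the seed in capitals (CTACCTC for let-7a, ACCAAAG for miR-9, GACTGTT for miR-132, CACTGTG for miR-128).
Foxp2, let-7a, chr6:15440073-15440095, plus strand: gaaagcttCTACCTCtgcaaaaa
Foxp2, let-7a, chr6:15441203-15441225, plus strand: aaaactgcCTACCTCtaacacca
Foxp2, miR-9, chr6:15438883-15438905, plus strand: agctgcaaACCAAAGccaactct
Foxp2, miR-9, chr6:15439573-15439595, plus strand: tcagtcaaACCAAAGttacatat
Foxp2, miR-132, chr6:15438681-15438703, plus strand: agtaattaGACTGTTgcaaccat
Foxp2, miR-132, chr6:15441358-15441380, plus strand: tttcatgtGACTGTTacaagtat
Tbr1, miR-128, chr2:61813232-61813254, plus strand: gatgtaacCACTGTGtgccctgg
Foxp2 had 2 matches each to let-7a, miR-9 and miR-132. At least 1 match was present in 21.5%, 31.5% and 25.9% of UTRs of like length, and 96.9%, 94.5% and 96.1% had fewer than 2. Sox5 had 2 matches to miR-132 that are not printed (32.3% of like UTRs had a match, and 94.8% had fewer than 2). Tbr1 had 1 to miR-128 (23.3%). The seed of miR-125b-5p was searched as well and had no match in these genes. A match describes the letters of the reference sequence and says nothing of whether the site is used.

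The first question was how the level of each gene changed between early, middle and late neurogenesis. All 6 genes were present at every stage, and the direction of change divided them. Bcl11b (log2 change 0.96, adjusted p = 2.90e-08), Fezf2 (0.85, 4.28e-06) and Tbr1 (0.51, 0.000307) were higher at E16.5 than at E11.5, Tle4 was lower, Sox5 was close to its starting level, and Foxp2 was scarce throughout and highest at E16.5. At 0 h, 1 gene (Bcl11b) passed the threshold of an adjusted p under 0.05 and a change beyond 2-fold upward from E11.5 to E14.5, and 1 (Foxp2) from E14.5 to E16.5. From E11.5 to E16.5, 1 rose (Foxp2) and 1 fell (Tle4) past the same threshold. Over all 18408 genes tested, 8.14% rose and 8% fell beyond 2-fold from E11.5 to E14.5, 7.19% and 5.92% from E14.5 to E16.5, and 14.7% and 14.6% from E11.5 to E16.5. By adjusted p alone, 4, 5 and 5 of the 6 genes changed in these comparisons, against 48.6%, 49.5% and 64.4% of all genes.

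Bcl11b, the zinc-finger protein of subcerebral axon outgrowth, had the largest early rise. Its levels in pools A, B and C were 120.2, 118 and 126 cpm at E11.5, 261, 263 and 244 cpm at E14.5 and 221, 235 and 226 cpm at E16.5. The E11.5 pools lay far below all later pools, and the E16.5 pools lay just below those of E14.5 without overlap. The fitted log2 change from E11.5 to E14.5 was 1.18 (SE 0.065, adjusted p = 1.36e-08), and the later change was −0.21 (adjusted p = 0.0136). Over all 5 chase times, the E11.5 libraries (113 to 138 cpm) did not overlap those of E14.5 (195 to 296 cpm) or E16.5 (171 to 235 cpm). The later fall was no longer past the threshold when whole reads replaced covered Ts (adjusted p = 0.0800) or without E14.5 pool A (0.056) or E16.5 pool A (0.126).

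Fezf2, the zinc-finger selector of subcerebral neurons, rose early and then showed no further change past the threshold. It stood at 84.5, 73.1 and 79.97 cpm at E11.5, at 113, 128 and 108 cpm at E14.5 and at 136, 119.9 and 153 cpm at E16.5. The E11.5 pools were the lowest, and the E14.5 and E16.5 pools overlapped. The log2 change was 0.62 (SE 0.095, adjusted p = 0.000144) for the first step and 0.23 (adjusted p = 0.0569) for the second. That second value passed under 3 other processings of the counts (adjusted p = 0.0249 to 0.0345) and without E14.5 pool B (0.0237) or E16.5 pool B (0.0161).

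Tbr1, the T-box factor of layer VI and the subplate, rose late. Its pools read 236, 250 and 284 cpm at E11.5, 299.6, 285 and 258 cpm at E14.5 and 354, 374 and 338 cpm at E16.5. The first 2 stages overlapped, and the E16.5 pools lay above both. The log2 change was 0.19 (adjusted p = 0.106) for the first step and 0.32 (adjusted p = 0.0117) for the second. The late rise missed the threshold without E14.5 pool C (adjusted p = 0.0512) or E16.5 pool B (0.0526), and the early one passed without E11.5 pool C (0.0155) or E14.5 pool C (0.0467).

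Tle4, the Groucho-type corepressor, moved the other way. Levels of 259.8, 244 and 261 cpm at E11.5 were followed by 135, 159 and 138 cpm at E14.5 and by 93.1, 107 and 113 cpm at E16.5. Every stage was separate from the next, and the order ran downward. Both steps passed the test, with log2 changes of −0.76 (SE 0.083, adjusted p = 7.11e-06) and −0.48 (adjusted p = 0.000328), and the whole fall was −1.24 (adjusted p = 2.97e-08). Tle4 calls between stages held in every alternative run.

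Sox5, an SRY-box factor that times deep-layer production, peaked at E14.5 by a small margin. Its pools held 149, 126 and 149 cpm at E11.5, 159, 149 and 177 cpm at E14.5 and 125, 142 and 121 cpm at E16.5. The E14.5 pools lay above the others, the lowest of them only just (149.4 against 148.7 cpm), and E11.5 and E16.5 overlapped. The log2 changes of 0.24 (adjusted p = 0.0335) and −0.29 (adjusted p = 0.0136) passed the test, while E16.5 against E11.5 gave −0.05 (adjusted p = 0.650). The rise was lost without E11.5 pool B (adjusted p = 0.119), E14.5 pool A (0.0673) or E14.5 pool C (0.126), and with counts scaled to library totals only (0.113). The fall was lost without E14.5 pool C (0.0576), E16.5 pool A (0.0865) or E16.5 pool C (0.0639). Sox5os1, an antisense gene that shares 1330 exon bases with Sox5, reached at most 0.0801 cpm in any library.

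Foxp2, the forkhead factor of layer VI, was measured from few reads. It stood at 2.86, 2.02 and 3.54 cpm at E11.5 (73, 42 and 92 reads), at 2.63, 1.85 and 2.66 cpm at E14.5 (124, 56 and 99 reads) and at 4.91, 7.20 and 5.63 cpm at E16.5 (129, 304 and 211 reads). The earlier stages overlapped, and all E16.5 pools were higher. The first step gave a log2 change of −0.18 (SE 0.23, adjusted p = 0.557), the second one of 1.27 (SE 0.235, adjusted p = 0.000645). With the 5 wells of each pool summed, the early difference became −0.42 (adjusted p = 0.0250).

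**Figure D1:**
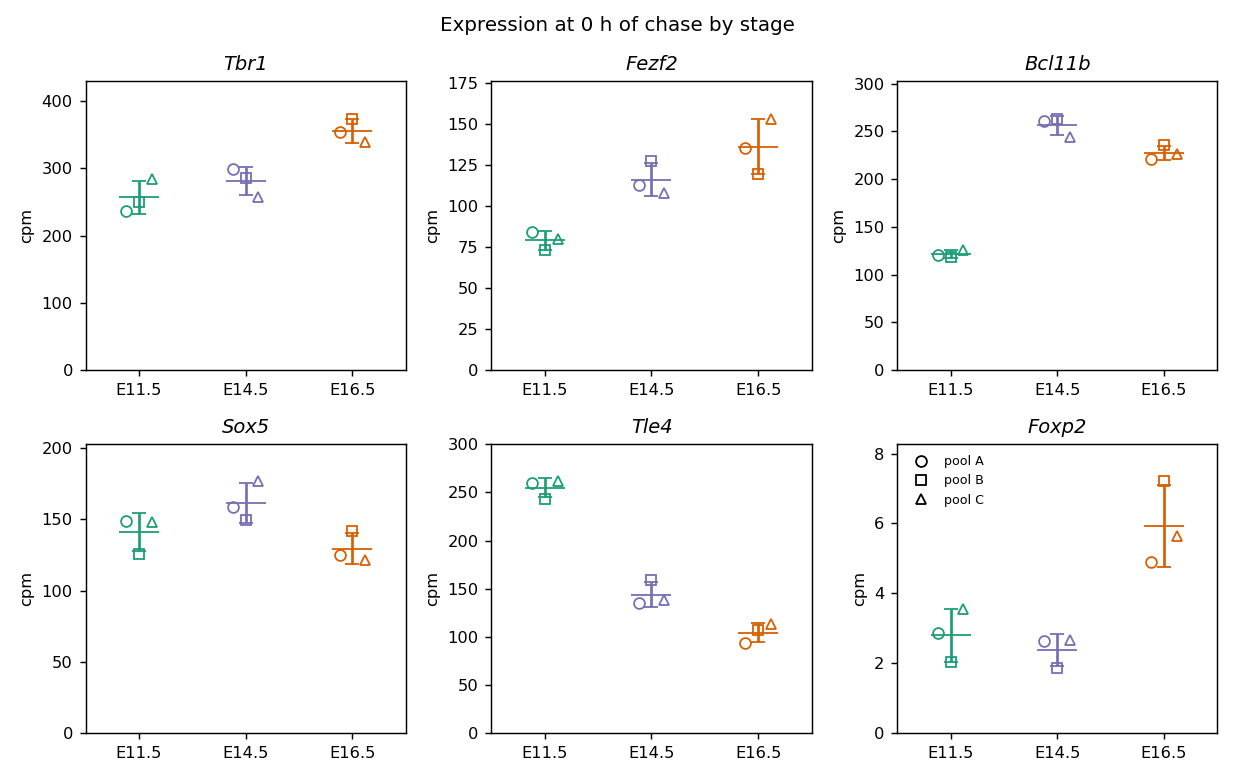
Level of each gene at 0 h of chase, in cpm (y axis, from 0), by stage (x axis). Symbols are the 3 pools of a stage, horizontal lines their mean and bars 1 SD. Bcl11b, Fezf2 and Tle4 separate E11.5 from both later stages, and Foxp2 is at 7.20 cpm or less.

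Levels of different genes can be compared only per exon length. In cpm per kb of exon at 0 h, Tbr1 was the highest of the 6 at every stage, at 46.8 (E11.5), 51.2 (E14.5) and 64.8 (E16.5), and Foxp2 the lowest, at 0.172, 0.146 and 0.362. At E11.5 Tle4 came next to Tbr1 at 44.7, and their pools overlapped. It was followed by Fezf2 (26.0), Bcl11b (14.98) and Sox5 (9.80). By E14.5 the order was Tbr1, Fezf2 (38.2), Bcl11b (31.6), Tle4 (25.2), Sox5 (11.2) and Foxp2, and the same order held at E16.5, with Fezf2 at 44.7, Bcl11b at 28.0, Tle4 at 18.3 and Sox5 at 9.01. Tle4 therefore dropped from rank 2 to rank 4, and Tbr1 with Tle4 at E11.5 was the only pair of neighbours whose pools overlapped. These lengths take all exons of a gene together. With the longest coding isoform instead, the length of Sox5 went from 14376 to 7243 bases and its level at E11.5 to 19.5, above Bcl11b (14.98). Tbr1 stayed the highest and Foxp2 the lowest, while Tle4 (31.7) was next to Bcl11b (31.6) at E14.5 with overlapping pools, and the E11.5 pools of Tbr1 and Tle4 no longer overlapped.

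The makeup of the cultures changed over the same interval, and none of the pan-neuronal or progenitor markers was at 0 at any stage. The summed level of 12 pan-neuronal markers went from 3243 cpm at E11.5 through 6661 to 9247 cpm at E16.5, and that of 10 progenitor markers was 10649, 4457 and 1670 cpm. The 12 were Neurod2, Neurod6, Tubb3, Dcx, Map2, Stmn2, Rbfox3, Slc17a6, Slc17a7, Nefl, Bhlhe22 and Elavl3. Bhlhe22 and Neurod6 rose most from E11.5 to E16.5 (log2 3.23 and 2.96), and ratios to the sum depend on this choice of genes. In bulk RNA, fewer cells of a type and less RNA per cell cannot be told apart. Set against the pan-neuronal sum, none of the 6 genes gained from E11.5 to E16.5: per 1000 pan-neuronal reads, Tbr1 stood at 79.2, 42.2 and 38.4, Fezf2 at 24.6, 17.5 and 14.8, Bcl11b at 37.6, 38.5 and 24.6, Sox5 at 43.6, 24.3 and 13.99, Tle4 at 79.0, 21.7 and 11.3 and Foxp2 at 0.858, 0.356 and 0.640. Bcl11b alone kept its ratio between the first 2 stages. Markers of interneurons and striatal neurons, the latter known for Foxp2 and Bcl11b, summed to 48.9, 121 and 462 cpm over 12 genes with none at 0. The 9 meningeal, endothelial, blood and microglia markers summed to 1706 to 3437 cpm in the E11.5 pools and to at most 69.9 cpm later. The 8 oligodendrocyte precursor and astrocyte markers summed to means of 158, 397 and 425 cpm. The 6 Cajal-Retzius markers summed to 168, 170.3 and 159 cpm, but they did not move together. From E11.5 to E16.5, 4 of them fell beyond 2-fold, among them Ebf2 (log2 −6.87), and 1, Reln, rose (1.50). Their median log2 change was −1.38. The part of all these other cell types in the levels of the 6 genes was not tested.

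Genes of the same fate programs did not move as one. Of 11 subcerebral projection neuron genes tested between E11.5 and E16.5, 4 rose and 6 fell beyond 2-fold, with a median log2 change of −1.26 against −0.04 over all genes. Ldb2, a LIM-domain binding protein, rose by 4.67 and the adhesion protein gene Cntn6 fell by 4.44 on the log2 scale. Of 11 corticothalamic and subplate genes, 5 rose and 2 fell (median 0.75). Syt6 (3.95), a synaptotagmin of layer VI, and Nr4a2 (3.28), an orphan nuclear receptor of the subplate, had the largest rises. Nxph4 of the same list fell (−2.68). Of 9 upper-layer genes, 4 rose and 1 fell (median 0.82), and Unc5d, a netrin receptor, rose by 2.83. Of 10 upstream regulators of deep-layer fate, none rose and 6 fell (median −1.21), led by the proneural factor Neurog1 (−4.10), followed by Emx2, Emx1 and Pax6 (−1.80, −1.60 and −1.53). For comparison, the 6 genes had a median of 0.68, the pan-neuronal list had 9 of 12 up and a median of 1.63, and the progenitor list had 9 of 10 down and a median of −1.61. The reference genes Neurod2, a transcription factor of postmitotic neurons, and Sox2, a progenitor factor, had log2 changes of 1.83 and −1.68.

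Close relatives gave a view of each gene within its family, and of 10 tested between E11.5 and E16.5, 3 rose and 2 fell beyond 2-fold (median 0.60). Bcl11a, the paralogue of Bcl11b, averaged 184, 246 and 362 cpm at the 3 stages and so was highest at E16.5, where Bcl11b was below its E14.5 level. Sox6, the SoxD partner of Sox5, averaged 236, 119 and 55.5 cpm, and Sox13 43.3, 17.4 and 5.15 cpm, both with log2 changes from E11.5 to E16.5 (−2.01 and −3.02) far beyond that of Sox5 (−0.05). Tle1 and Tle3 averaged 73.6 and 161 cpm at E11.5 and 111 and 208 cpm at E16.5, where Tle4 went from 255 to 104 cpm. In cpm per kb of exon, Foxp1 (1.90, 5.20 and 5.78) and Foxp4 (8.51, 9.47 and 14.8) were both far above Foxp2 at every stage. Eomes, the T-box relative of Tbr1 in intermediate progenitors, averaged 54.4, 35.7 and 25.9 cpm. Fezf1 averaged 3.73 cpm at E11.5, had no read at E14.5 and averaged 0.0127 cpm at E16.5.

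The next question was whether the levels held while the label was chased. No gene moved beyond 2-fold between 0 h and 12 h, against 3.97% of all genes in the E11.5 chase, 2.28% in that of E14.5 and 3.03% in that of E16.5. By adjusted p alone, 2 of the 6 passed at each stage, against 23%, 15% and 26.2% of all genes. With the pool as a block (the 5 wells of a pool are the same cells), 32.4%, 27.7% and 37% of all genes passed, and 3, 4 and 4 of the 6. The median log2 change of the 6 genes was −0.18 at both earlier stages and −0.27 at E16.5, where all genes had a median of 0.00 at each stage. Changes in cpm and fitted changes are scaled differently, since cpm is set against the whole library. A single gene, Gm42418, took 2.97, 3.54 and 6.76% of the reads in the 12 h libraries of E11.5 and 0.15 to 2.05% elsewhere, and scaling to library totals moved the median of all genes by −0.10 there.

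Tle4 fell at E11.5 and E14.5 and was lower at E16.5 as well. At 12 h it stood at 181, 174 and 176 cpm in the E11.5 pools, at 107, 115 and 109 cpm at E14.5 and at 76.7, 82.4 and 93.8 cpm at E16.5, lower than at 0 h in every pool. The 0 h and 12 h pools were separate at E11.5 and E14.5 and overlapped at E16.5. The fitted log2 changes were −0.34 (SE 0.058, adjusted p = 0.000573), −0.37 (adjusted p = 0.00823) and −0.27 (adjusted p = 0.0758), and with the pool as a block the last passed as well (adjusted p = 2.89e-05). The call was lost without pool A at E11.5 (0.0566) and without pool B at E14.5 (0.0656).

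Tbr1 had its highest mean at 2 h at each stage and was below its 0 h mean from 4 h on. The means over 0, 2, 4, 8 and 12 h were 257, 283, 232, 209 and 202 cpm at E11.5, 281, 312, 270.3, 231 and 244 cpm at E14.5 and 355, 386, 312, 289 and 287 cpm at E16.5. At 12 h every pool was below its own 0 h value, and the pools of both times overlapped only at E14.5. The 12 h change passed at E16.5 (log2 −0.28, adjusted p = 0.00988), though not without pool A (0.127). At E11.5 and E14.5 it was −0.16 (adjusted p = 0.433) and −0.19 (adjusted p = 0.331), and with the pool as a block both passed (adjusted p = 0.0252 and 0.00759).

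Fezf2 fell at E11.5 and was level later. Its E11.5 pools went from 84.5, 73.1 and 79.97 cpm at 0 h to 55.0, 47.6 and 53.9 cpm at 12 h, with no overlap (log2 −0.39, SE 0.099, adjusted p = 0.00944). At 12 h the E14.5 pools had 117, 106 and 109 cpm and the E16.5 pools 133, 113 and 166 cpm, and both overlapped their 0 h values (log2 −0.07, adjusted p = 0.627, and 0.05, adjusted p = 0.854). The fall at E11.5 missed the threshold without pool A (0.153) or pool B (0.0571). The difference between stages in this change was 0.43 for E16.5 against E11.5 (adjusted p = 0.122), and it passed with the pool as a block (0.43, adjusted p = 0.000131), as did E14.5 against E11.5 (0.30, adjusted p = 0.00803).

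Bcl11b fell at E16.5, from 221, 235 and 226 cpm to 171, 173 and 196 cpm, with no overlap (log2 −0.27, adjusted p = 0.00278). At E14.5 its pools reached 254, 224 and 199 cpm at 12 h (log2 −0.17, adjusted p = 0.221, and 0.0183 with the pool as a block). At E11.5 it read 118, 113 and 117 cpm at 12 h, lower in cpm in 3 of 3 pools, whereas the fitted change was 0.15 (adjusted p = 0.156). Without the block it was the only one of the 6 genes whose change over the chase differed between stages by the test of the difference itself. That difference was −0.41 on the log2 scale for E16.5 against E11.5 (SE 0.11, adjusted p = 0.0116), where 8.9% of all genes passed. The value for E14.5 against E11.5 was −0.34 (adjusted p = 0.0519, and 0.00253 with the block), where 6.07% passed, and for E16.5 against E14.5 it was −0.07 (adjusted p = 0.873), where 0.906% passed. Under the block 14.2% passed for E14.5 against E11.5 and 19.3% for E16.5 against E11.5. Without E16.5 pool A or pool B the adjusted p for E16.5 against E11.5 was 0.0570 or 0.0901.

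Sox5 rose over the chase at E14.5. Its pools went from 159, 149 and 177 cpm to 197, 191 and 190.4 cpm without overlap (log2 0.28, adjusted p = 0.0432). At 12 h it read 123, 121 and 117 cpm at E11.5 (log2 −0.04, adjusted p = 0.762) and 128, 142 and 135 cpm at E16.5 (log2 0.10, adjusted p = 0.435). The difference from E11.5 in this change was 0.30 (adjusted p = 0.2001, and 0.0327 with the pool as a block). The rise was lost without pool A (0.247) or pool B (0.259), with whole reads (0.0633) and with library totals only (0.0598). Foxp2 read 2.36, 2.17 and 1.88 cpm at 12 h at E11.5, 1.87, 1.52 and 1.72 cpm at E14.5 and 4.34, 4.32 and 5.08 cpm at E16.5. None of its changes passed (log2 −0.19, −0.52 and −0.35, adjusted p = 0.575, 0.132 and 0.166), and under the block the last did (adjusted p = 0.0366).

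**Figure D2:**
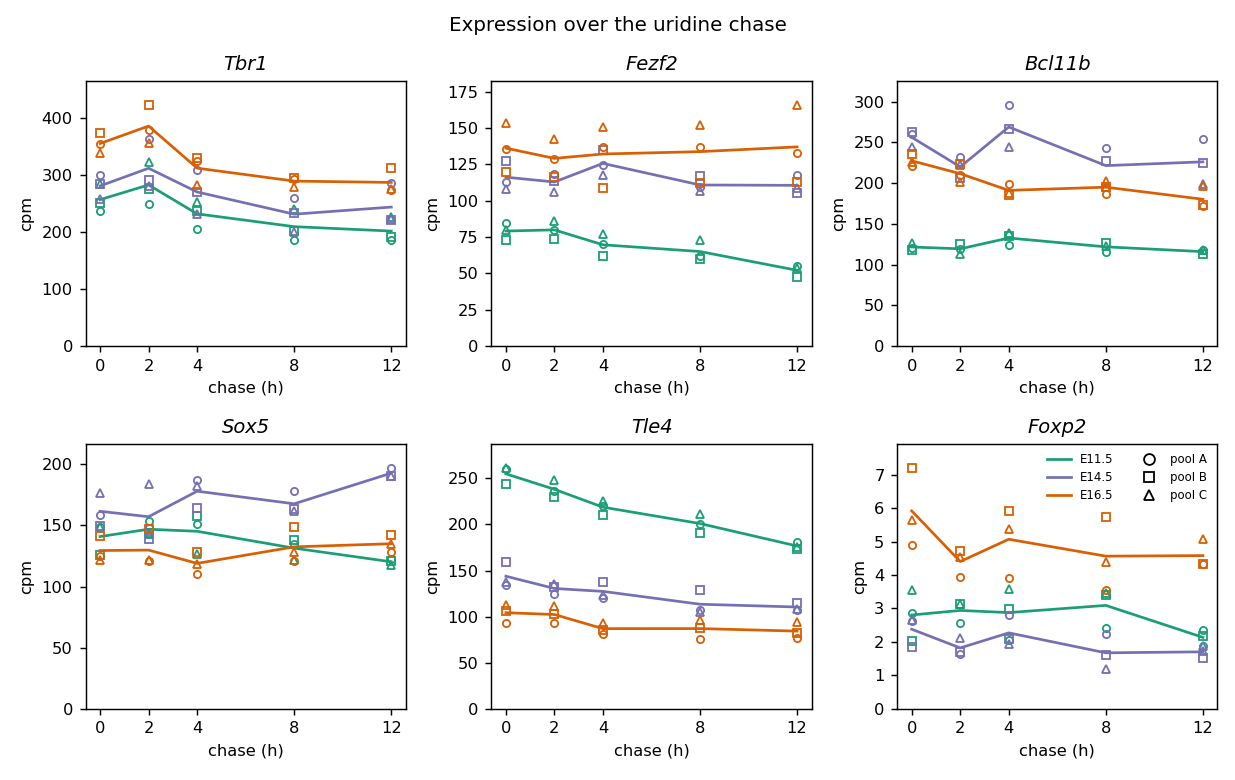
Level of each gene in cpm (y axis, from 0) over 12 h of chase (x axis), with symbols for the 3 pools and lines through the stage means. Tle4 declines at all 3 stages, from means of 255, 144 and 104 cpm at 0 h, and Tbr1 has its highest mean at 2 h at each stage.

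The conversion rate at 0 h is the label held by the RNA of a gene after 20 h of labelling. Both the share of RNA made in that time and the label in each new RNA enter it. These were not told apart. The rate of the whole library was 1.09, 1.01 and 1.44% in the E11.5 pools, 1.09, 1.18 and 1.03% at E14.5 and 1.80, 1.91 and 1.88% at E16.5, so rates of a gene were set against it. Of the 6 genes, 4 differed between stages in this ratio (limma F-test over the stages), against 18.1% of the 12522 genes tested. They were Tbr1 (adjusted p = 0.00246), Bcl11b (0.0131), Tle4 (0.0169) and Foxp2 (0.0295), while Fezf2 (0.109) and Sox5 (0.129) did not pass. Single pairs of stages passed for 0.192% of all genes (E14.5 against E11.5), 17.1% (E16.5 against E14.5) and 17.4% (E16.5 against E11.5).

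Tbr1 RNA carried little label at E11.5. Its own rate was 0.688, 0.672 and 1.09% in the pools of that stage (660, 573 and 1343 converted Ts), 1.06, 1.10 and 1.01% at E14.5 and 1.82, 1.95 and 1.90% at E16.5. Divided by the library rate this gave 0.633, 0.667 and 0.758, then 0.966, 0.934 and 0.987, then 1.01, 1.02 and 1.01. The E11.5 pools were apart from all others, between the 2.40th and 4.95th percentile of all genes, whereas the E16.5 pools lay between the 55.2nd and 60.2nd. The log2 difference was 0.57 between E16.5 and E11.5 (adjusted p = 0.00173) and 0.49 between E14.5 and E11.5 (adjusted p = 0.0563).

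Bcl11b went the same way over a shorter range, with ratios of 0.885, 0.905 and 0.871 at E11.5, 1.06, 1.01 and 1.09 at E14.5 and 1.08, 1.07 and 1.05 at E16.5. All E11.5 pools were below the library rate and all later pools above it (log2 0.27 for E16.5 against E11.5, adjusted p = 0.00968). Tle4 did the opposite between the later stages, from 1.11, 1.08 and 1.24 at E14.5 to 0.876, 0.914 and 0.894 at E16.5 (log2 −0.35, adjusted p = 0.00760). At E11.5 it had stood at 1.03, 1.06 and 1.01, just above the library rate. Its F-test was lost under the replicate block (0.0511) and without E16.5 pool A (0.0653), B (0.0544) or C (0.0631). That block joins pools of different embryos by letter across stages.

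Sox5 was the most heavily labelled of the 6. Its rate was 1.08 to 1.26 times the library rate at E11.5, 1.25 to 1.43 times at E14.5 and 1.30 to 1.37 times at E16.5, where all pools stood at or above the 96.1st percentile of genes. Fezf2 was below the library rate in all pools of E11.5 (0.923, 0.953 and 0.941) and E14.5 (0.941, 0.777 and 0.936) and above it at E16.5 (1.06, 1.08 and 1.03). Foxp2 gave 0.792, 0.588 and 0.510 at E11.5, on only 4 to 12 converted Ts a pool, 1.13, 0.954 and 1.14 at E14.5 and 0.965, 0.876 and 0.779 at E16.5. The E14.5 pools were thus above those of E11.5, and the E16.5 pools overlapped both. Its exact 95% binomial interval for pool B at E11.5 ran from 0.162 to 1.51% around a rate of 0.593%, so its order among genes is not fixed at this depth. The F-test for Foxp2 fell short in 6 of the 9 fits that left out 1 pool (adjusted p = 0.0520 to 0.0788).

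**Figure D3:**
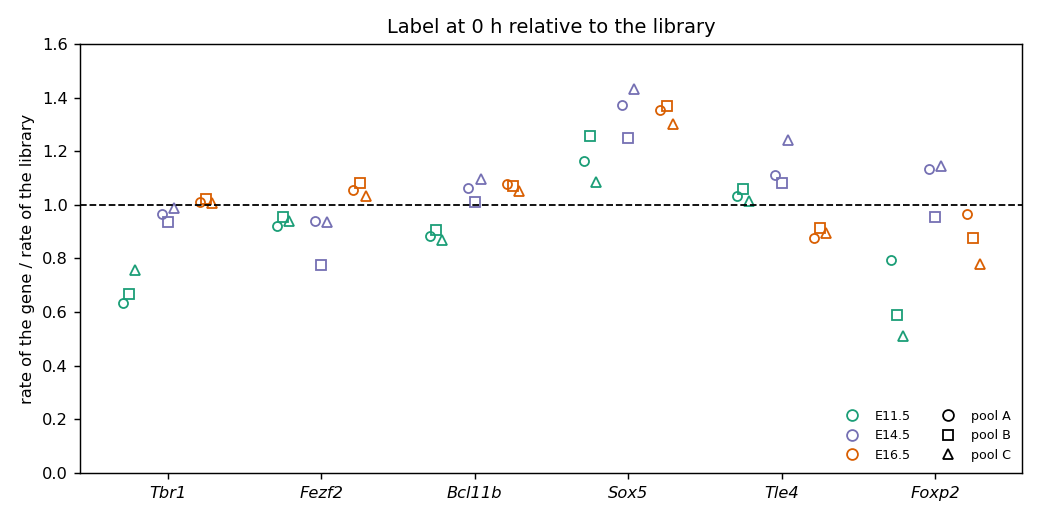
Conversion rate of each gene at 0 h divided by that of its library (y axis, from 0), for the 3 pools of each stage. The dashed line at 1 is the library rate. Tbr1 at E11.5 (0.633 to 0.758) lies under all its later pools, and Sox5 lies above 1 in every pool.

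The half-life was then read from the fall of the label during the chase. A single exponential was fitted to each pool, and a value was kept where all 3 pools of a stage had over 500 covered Ts at each time, a half-life under 24 h and an R2 over 0.6. Of the 18 combinations of gene and stage, 16 were kept. Foxp2 at E11.5 gave 1.83, 3.23 and 36.5 h, with an R2 of 0.0758 in pool C, and Foxp2 at E14.5 had as few as 328 covered Ts at one time. In 15 of the 16 kept combinations the mean half-life was below the median of all kept transcripts, which was 4.43 h at E11.5 (10858 transcripts), 4.60 h for the 10686 transcripts of E14.5 and 3.48 h for the 11850 of E16.5. This count belongs to the exponential fit. With a straight line through the log of the rate, most of these combinations lay above the median instead, as given below.

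Tle4 and Fezf2 had the shortest half-lives at E11.5. Tle4 gave 2.78, 2.94 and 2.54 h (2.75 ± 0.20, SD, n = 3; 7.497th percentile) and Fezf2 2.68, 3.36 and 2.32 h (2.78 ± 0.53; 7.89th percentile). Bcl11b gave 3.81, 3.53 and 2.83 h and Sox5 3.96, 4.31 and 3.10 h, which overlapped, and Tbr1 gave 4.87, 4.97 and 3.59 h (4.48 ± 0.77; 51.3rd percentile). Pool C had the lowest value for all 5 genes, and the library rate at 0 h was highest in this pool. With a background rate subtracted, Tbr1 stood at the 36.2nd percentile and Sox5 at the 32.5th, so the place of Tbr1 near the median depended on this setting. Here and below, this background was the 1st percentile of the 12 h rates of the pool over genes with more than 5000 covered Ts. It was thus taken from labelled cells.

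At E14.5 the 5 genes came together. Tle4 was again the shortest, at 3.27, 3.26 and 3.07 h (3.20 ± 0.11; 14.8th percentile). Bcl11b gave 3.37, 3.63 and 3.59 h, Fezf2 3.31, 4.03 and 3.48 h, Tbr1 3.55, 3.72 and 3.60 h (3.62 ± 0.089; 24.0th percentile) and Sox5 4.65, 3.25 and 4.69 h. Bcl11b, Fezf2 and Tbr1 overlapped each other, and Sox5 pool B lay apart from its other pools.

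At E16.5 all values were lower. Fezf2 gave 1.96, 2.23 and 2.18 h (2.12 ± 0.15; 11.4th percentile), Bcl11b 2.17, 2.04 and 2.17 h (2.12 ± 0.075; 11.53rd percentile), Tle4 2.10, 2.31 and 1.99 h (2.14 ± 0.16) and Tbr1 2.21, 2.23 and 2.36 h (2.27 ± 0.081; 14.9th percentile). Sox5 gave 2.52, 2.79 and 2.03 h. Foxp2 had 1.38, 1.23 and 2.45 h (1.68 ± 0.66; 3.03rd percentile), on 2 to 3 converted Ts a pool at 12 h. Apart from Foxp2 and Sox5, the pools of these genes lay within 1.96 to 2.36 h. In hours all 5 genes tested were shorter at E16.5 than at E14.5, with differences of −1.06 to −1.75 h (limma, adjusted p = 0.0199 to 0.0313), where 38.1% of the 9505 transcripts compared passed and their median difference was −1.15 h. With a background rate subtracted, the E14.5 and E16.5 means were 2.67 and 1.88 h for Fezf2 and 2.73 and 2.00 h for Tbr1. For Bcl11b, Tle4 and Sox5 they were 2.72 and 1.87 h, 2.54 and 1.85 h, and 3.47 and 2.20 h. The median of all kept transcripts was then 3.76 and 3.12 h.

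**Figure D4:**
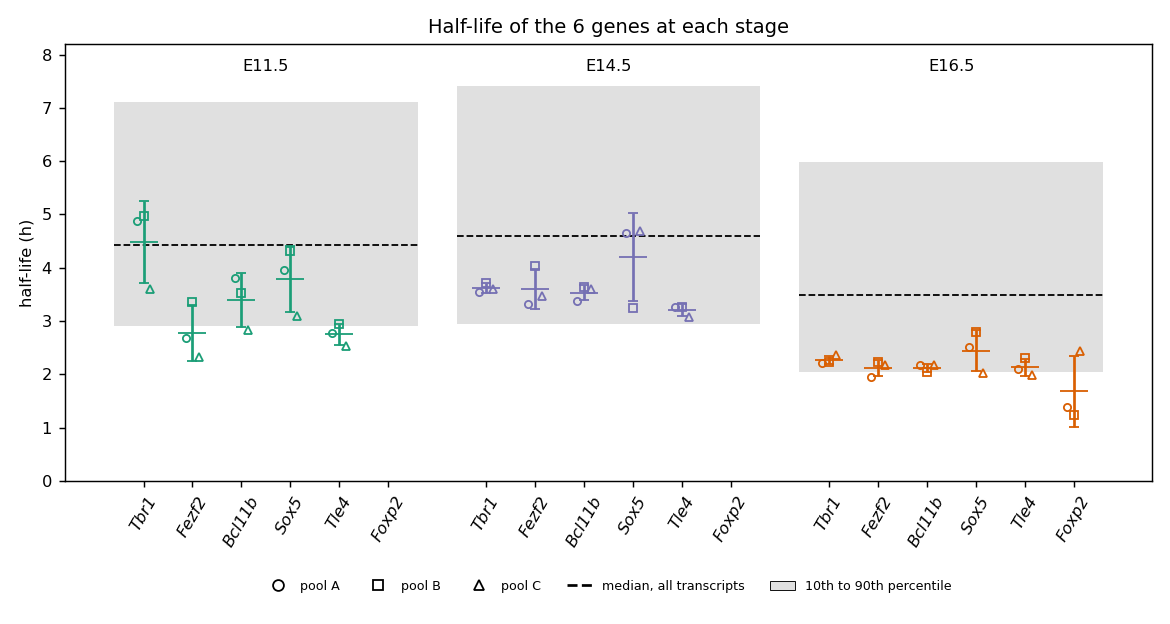
Half-life in h (y axis, from 0) of each gene at each stage. Symbols are pools, horizontal lines means and bars 1 SD, with the median (dashed) and the 10th to 90th percentile (grey) of all kept transcripts. Fezf2, Bcl11b and Tle4 lie under the median at every stage, and Tbr1 moves from the median at E11.5 (4.48 h) toward the lower edge at E16.5 (2.27 h).

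To set stages on one scale, half-lives were expressed in each pool as SDs from the mean of the 9505 transcripts kept at all stages. Tbr1 was the one gene of the 5 tested whose relative half-life differed between stages (limma F-test, adjusted p = 0.0397), against 3.15% of all transcripts. Its values were 0.05, −0.10 and −0.32 at E11.5, −0.61, −0.52 and −0.68 at E14.5 and −0.86, −0.87 and −0.82 at E16.5. The stages did not overlap, and each was lower than the one before. The change from E11.5 to E16.5 was −0.73 (SE 0.12, adjusted p = 0.0196), where 4.7% of transcripts passed. From E11.5 to E14.5 it was −0.48 (adjusted p = 0.154) and from E14.5 to E16.5 −0.25 (adjusted p = 0.340), where 0.2% and 0.884% passed. The F-test call was lost with a background subtracted (0.0771), with the replicate block (0.0993) and in 8 of the 9 fits that left out 1 pool (0.0611 to 0.129). Across stages the replicate block joins pools of different embryos that share only a letter. The F-test gave adjusted p = 0.235 for Fezf2, 0.259 for Bcl11b, 0.437 for Sox5 and 0.501 for Tle4. Half-lives are fitted to rates divided by the 0 h rate, so the label and the half-life of Tbr1 share this measurement. Its mean 0 h rates were 0.817, 1.06 and 1.89% at the successive stages, and its mean 12 h rates 0.197, 0.233 and 0.180%. The part of the low E11.5 start in the half-life change was not tested.

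The size of the half-lives depended on the form of the fit, and the label levelled off late in the chase. At 12 h Bcl11b still had 26.6, 21.2 and 11.1% of its 0 h rate at the successive stages, and Fezf2 had 19.7, 19.8 and 11.0%. The mean 12 h rates themselves were close between stages, at 0.269, 0.246 and 0.221% for Bcl11b and 0.214, 0.191 and 0.217% for Fezf2. The mean 0 h rates were 1.04, 1.16 and 1.99% for Bcl11b and 1.11, 0.968 and 1.97% for Fezf2. A straight line through the log of the rate, which gives these late points more weight, lengthened the value of each of the 16 kept combinations. Bcl11b then reached 6.57 h at E11.5 (89.4th percentile) and 3.78 h at E16.5 (62.3rd), Sox5 6.07, 6.66 and 4.57 h (84.5th, 90th and 84.6th), Fezf2 5.18, 5.18 and 3.70 h (65.1st, 63.9th and 58.0th) and Tle4 4.65, 4.65 and 3.80 h (39.1st, 36.1st and 63.5th). Tbr1 gave 5.79, 5.56 and 3.46 h (80.4th, 76.1st and 41.4th), and Foxp2 at E16.5 gave 3.99 h (71.3rd). With the 12 h point left out of the exponential fit, Fezf2, Tle4 and Bcl11b stood at the 8.10th, 8.25th and 15.9th percentile at E11.5, against the 7.89th, 7.497th and 21.02nd with it. By 2 h the rate had dropped to 59.4% of its start for Fezf2 and 57.1% for Bcl11b at E11.5, and to 53.8 and 52.1% at E16.5. With a background rate subtracted, half-lives shortened instead, to 2.03, 2.67 and 1.88 h for Fezf2 and to 3.12, 2.73 and 2.00 h for Tbr1.

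**Figure D5:**
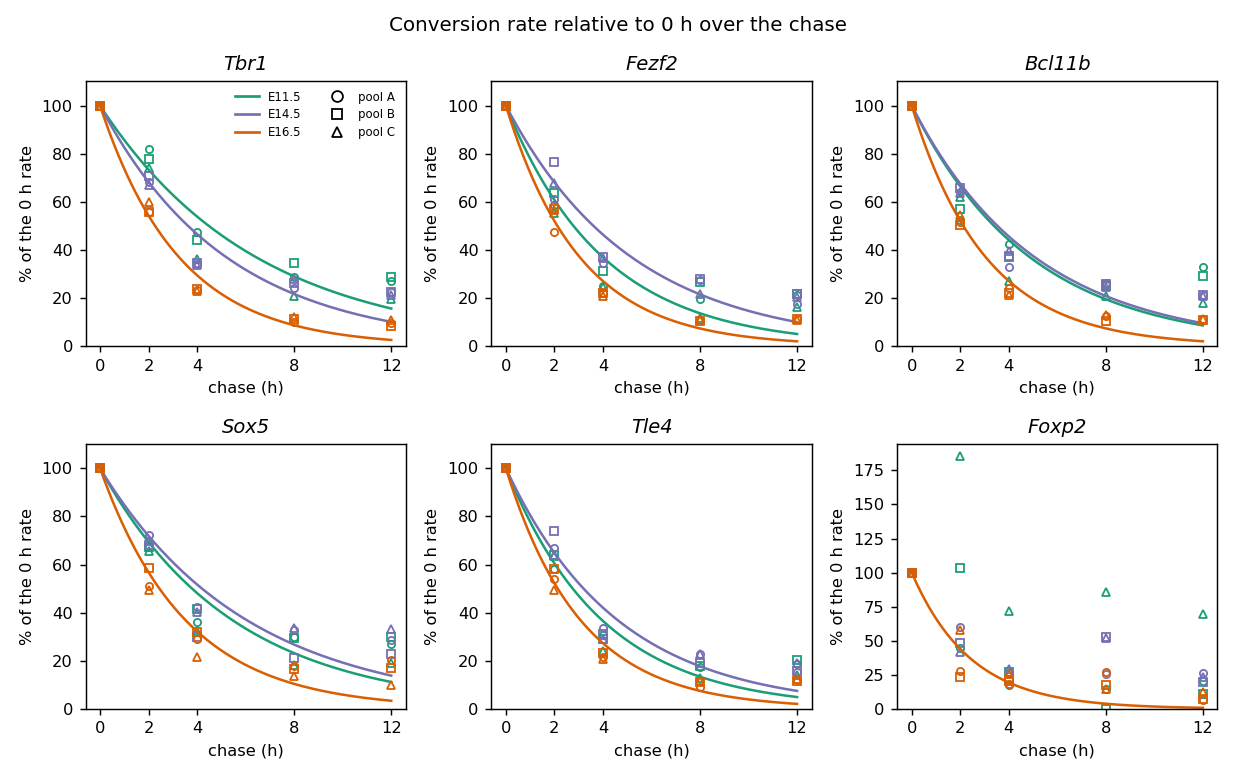
Conversion rate as a percentage of the 0 h rate of the same pool (y axis) over 12 h of chase (x axis). Symbols are pools, and curves are exp(−kx) at the mean half-life of a stage, drawn where it was kept. Points at 12 h lie above the curves, as for Bcl11b at E11.5 (mean 26.6%).

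Across the 45 libraries the 6 genes were not copies of one another. Over log2(cpm + 1), Fezf2 and Bcl11b had the highest correlation of any pair (Pearson r = 0.81), Tbr1 had 0.66 with Fezf2 and 0.50 with Bcl11b, and Tle4 ran against Fezf2 (−0.77) and Bcl11b (−0.70). The libraries share pools and stages, so these are descriptions without a test. Among 11527 protein-coding genes with at least 10 reads in every library, the genes most like each one by this measure were Bcas3, Rnf167 and Lhpp for Tbr1 (highest r 0.88), 5330417C22Rik, Lmo2 and Nrp1 for Fezf2 (0.94) and Ankrd6, Sh3kbp1 and Slc8a2 for Bcl11b (0.96). They were Zfp945, Arhgap12 and Polr3k for Sox5 (0.90), Mest, Shisa3 and Suv39h1 for Tle4 (0.98) and Mb21d2, Rgs2 and Robo2 for Foxp2 (0.91).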

How the data were processed

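The authors processed the SLAM-seq reads with SlamDunk against mm10, with exons of GENCODE release 24 added up per gene; multi-mapping and strand settings are not given in the sources used here. They deposited covered Ts as raw counts of T positions under reads, the conversion rate as a fraction of covered Ts, and expression in cpm, for which the total exceeds the reads listed. In all 45 libraries 100% of cpm values gave whole reads, which were recovered. The deposited half-life columns hold fits of the authors and were not used. Positions and UTRs come from GENCODE release 21 (GRCm38); the motif letters were searched on the sense strand.

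Stage and chase comparisons used the quasi-likelihood test of edgeR 4.0.16 on covered Ts (TMM, more than 10 counts in every library). Half-life and label comparisons used limma 3.58.1, with Benjamini-Hochberg adjustment over all genes. A read covers several Ts, so the filter on covered Ts also admitted genes with few reads. On recovered reads it left 14611 genes between stages (18408 with covered Ts) and 14624, 14494 and 14650 over the chases (17904, 17956 and 18008). The shares of all genes given above are over the larger sets. Half-lives were refitted as exp(−kx) to rates divided by the 0 h rate. Alternatives were DESeq2 1.42.0, recovered reads (on which the chase test called 340, 189 and 161 genes beyond 2-fold), RLE factors, filters, samples in the fit, summed wells, other fits, replicate blocks, each pool left out, and, chosen after seeing the data, library totals without TMM and isoform lengths. Pools pair wells within a stage by the labels. Deviations of the 0 h and 12 h wells of a pool correlated at 0.089 to 0.339. In stage comparisons the replicate block joins pools by letter alone, although a letter marks different embryos at each stage. Between stages, deviations at 0 h of pools with the same letter correlated at −0.09 to 0.078. Binomial intervals cover counting error only. Code ran in R 4.3.3 and Python 3.11.15 and was tested on simulated data. The 6 genes and the marker lists were chosen with earlier results of these data known. Named are all 6 genes, of each list up to 4 called genes with the largest changes, Neurod2 and Sox2 as references, family members, and the 3 genes most alike to each. One gene of the upper-layer list is not reported here, and the list was counted without it.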

Additional observations from a re-analysis of the deposited data

Results flagged for a closer look

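Bcl11b changed over the 12 h of chase by different amounts at E11.5 and at E16.5. Its log2 change from 0 h to 12 h was lower by 0.41 at E16.5 than at E11.5 (difference −0.414519, SE 0.11, edgeR adjusted p = 0.0116), by the test of the difference itself. Of all genes, 8.9% passed for this pair of stages. The call for Bcl11b was lost without E16.5 pool A or pool B. Without the pool as a block, no other pair of stages passed. Within stages the change was 0.15, −0.17 and −0.27 from the earliest stage to the latest, and only the last passed without the pool as a block. The fall at E16.5 was seen in 3 of 3 pools. In cpm the E11.5 pools were also lower at 12 h in 3 of 3 cases, and with counts scaled to library totals only the difference was −0.36 (adjusted p = 0.0283). Gm42418 took 2.97 to 6.76% of reads in the 12 h libraries of E11.5, and its part in this result was not tested.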

How the results depend on the processing

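Of 1311 alternative values of the 6 genes, 1129 were counted as the same. A further 48 fell below the threshold, 56 rose above it, 47 moved and 31 had the other sign. For test results, the same meant the same direction and side of the threshold, or the side alone for F-tests. For half-lives and levels per kb it meant within the SD of the main value. Half-lives that failed the filters in an alternative were not counted. Of 135 counts of called genes 100 stayed within 1.5 times. Recovered reads gave 340, 189 and 161 chase calls at the 3 stages (711, 409 and 545 with covered Ts), and leaving out 1 pool gave 384 to 658, 187 to 343 and 385 to 414. Differences of the chase change between stages gave 1005 (E14.5 against E11.5), 150 (E16.5 against E14.5) and 1474 calls (E16.5 against E11.5), 2352, 1049 and 3199 with the pool as a replicate block, and 516 to 998, 28 to 71 and 800 to 1448 with 1 pool left out. Relative half-life calls (limma) went from 299 to 2296 in hours, 547 at R2 over 0.8, and 3 to 265 with 1 pool left out. With the replicate block there were 0 (1861 at unadjusted p under 0.05), though across stages this block joins pools of different embryos by letter. Label calls, 2267 with all pools, numbered 1263 to 2132 with 1 pool left out. The cause of these shifts was not tested.

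Signs turned only for values that passed in neither setting. Library totals only gave −0.0027 for Fezf2 over the E16.5 chase, and 0.060 and 0.057 for the differences of chase change of Tbr1 and Tle4 (E14.5 against E11.5). For relative half-life, hours gave −0.66 for Fezf2 and −0.62 for Tle4 (E16.5 against E11.5), and log2 values gave −0.026 and −0.016 there and −0.0031 for Bcl11b (E14.5 against E11.5). The median rate gave 0.044 for Sox5 label (E16.5 against E14.5). With 1 pool left out, ranges that crossed 0 were −0.39 to 0.092 for Foxp2 (E14.5 against E11.5 at 0 h), −0.12 to 0.0049 for Sox5 (E16.5 against E11.5 at 0 h), −0.097 to 0.0067 for Sox5 and −0.40 to 0.11 for Foxp2 over the E11.5 chase, −0.15 to 0.038 and −0.024 to 0.074 for Fezf2 over the E14.5 and E16.5 chase, −0.11 to 0.015 for Tbr1 and −0.48 to 0.054 for Foxp2 as differences of chase change. They were −0.046 to 0.11 for Bcl11b, −0.014 to 0.33 for Sox5, −0.020 to 0.12 for Fezf2 and −0.0068 to 0.10 for Tle4 in relative half-life, and −0.14 to 0.00011 for Fezf2, −0.016 to 0.041 for Bcl11b and −0.064 to 0.035 for Sox5 in label.

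Depth limited Foxp2 most, with 42 to 304 reads a library at 0 h, and no unlabelled culture gives the background of conversions. Each stage has 3 pools, and stage is tied to the number of embryos in a pool.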
